A study of Mus musculus with 272 samples.

Results

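The genes described here are 9 members of the homologous recombination pathway, *Brca1*, *Brca2*, *Palb2*, *Bard1*, *Rad51c*, *Rad52*, *Rad54l*, *Xrcc2* and *Xrcc3*, out of the 21938 protein-coding genes of the mouse annotation (GENCODE M21, mm10). The rule takes them by name and uses no measured value, although the list was drawn up with earlier results of these data known, and all 9 names were found in the annotation. Their chromatin was read from MuSCs, the stem cells of skeletal muscle, sorted as GFP+ cells from the hindlimb muscles of Pax7Cas9 mice. In these mice Pax7Cre turns on a Rosa26 knockin of Cas9 and EGFP, so that cells sorted in this way should express Cas9 and stand for the Pax7 lineage. The sorting methods name this mouse line, and the methods of the chromatin assays do not repeat it. No library was described as coming from cells without Cas9. The labels of these 8 libraries give no age, strain or treatment. The libraries comprised 2 replicates per assay. ATAC-seq detects open chromatin, and ChIP-seq was done for 3 histone marks: H3K4me3, found at promoters, H3K27ac, found where promoters or enhancers are active, and H3K27me3, laid down by Polycomb at repressed genes. Nothing in the labels says that the replicates came from separate mice, so the spread between them may be technical, and with 1 cell population there was no contrast to test. Each value below is therefore given for replicate 1 and then for replicate 2, with no p-value.

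Homologous recombination repairs a double-strand break by copying an intact template, usually the sister chromatid, and is used mainly after DNA replication. BRCA1 and BARD1 form a ubiquitin ligase that promotes the pathway, PALB2 links BRCA1 to BRCA2, and BRCA2 acts on resected single-stranded DNA. RAD51C, XRCC2 and XRCC3 are related proteins that work in complexes of the pathway, not all in the same one. RAD54L is a DNA translocase that promotes strand invasion, and RAD52 anneals single strands. MuSCs are largely quiescent in resting adult muscle. The series edits the genome of these cells with Cas9 and reads out the repair products, and the chromatin maps were made to ask whether chromatin relates to the products formed.

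The peak lists held 140937 and 94574 ATAC-seq peaks, 20519 and 18006 H3K4me3 peaks, 24217 and 18589 H3K27ac peaks, and 6080 and 10485 H3K27me3 peaks. Read numbers are not in the lists, so the depth behind a peak is unknown, and a promoter without a listed peak may have fallen below the threshold. ATAC-seq, H3K4me3 and H3K27ac are called the active features below. Of 13 MuSC markers, 12 carried all 3 at their promoters in each replicate, *Pax7* among them, against 46.2% of the 21938 protein-coding genes. The same held for 3 of 10 fibro-adipogenic, 1 of 10 endothelial, 1 of 9 blood and 2 of 10 myofibre markers. Of 10 markers of proliferating cells, 9 had all 3 features in both replicates.

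The sequences around the start sites are shown for 6 members. Those of *Palb2* and *Rad52* also held some of the letters marked below and are not shown. Each runs 5′ to 3′ in the direction of the gene, from 250 bases before to 50 bases after the RefSeq start, on GRCm38.p6. Peak positions further below are relative to the GENCODE reference start instead, and the RefSeq start lies 76 bp upstream of it in *Brca1*, 9 bp in *Brca2*, 4 bp in *Rad54l* and 38 bp in *Xrcc3*, and 174 bp downstream in *Bard1* and 17 bp in *Rad51c*. Capitals mark exact matches, on either strand, to CCAAT (NFY), GGGCGG (SP1), GCGCATGC (NRF1), CCGGAAG (ETS), TGACGT (CRE), TTTGGCGC, TTTCCCGC or TTTCGCGC (E2F) and TTTGAA (part of CDE-CHR).
Brca1, chr11:101551906-101552205, minus strand: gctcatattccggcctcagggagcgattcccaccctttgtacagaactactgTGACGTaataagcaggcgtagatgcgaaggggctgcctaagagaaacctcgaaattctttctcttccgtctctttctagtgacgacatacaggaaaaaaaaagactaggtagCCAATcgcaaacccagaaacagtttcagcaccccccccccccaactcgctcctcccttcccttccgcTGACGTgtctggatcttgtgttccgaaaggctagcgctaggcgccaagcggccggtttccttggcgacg
Brca2, chr5:150522371-150522670, plus strand: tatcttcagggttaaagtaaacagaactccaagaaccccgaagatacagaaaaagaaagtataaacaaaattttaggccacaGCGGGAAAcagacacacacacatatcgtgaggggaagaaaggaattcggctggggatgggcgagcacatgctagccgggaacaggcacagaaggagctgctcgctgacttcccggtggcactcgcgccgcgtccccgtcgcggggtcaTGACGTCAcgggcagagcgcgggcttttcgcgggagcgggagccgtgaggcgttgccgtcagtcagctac
Bard1, chr1:71102923-71103222, minus strand: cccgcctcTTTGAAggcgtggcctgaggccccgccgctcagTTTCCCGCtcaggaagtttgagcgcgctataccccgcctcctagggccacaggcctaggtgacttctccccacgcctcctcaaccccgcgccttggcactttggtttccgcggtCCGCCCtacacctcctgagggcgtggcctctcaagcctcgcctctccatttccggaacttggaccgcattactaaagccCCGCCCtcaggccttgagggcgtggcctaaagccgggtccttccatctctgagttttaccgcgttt
Rad51c, chr11:87404457-87404756, minus strand: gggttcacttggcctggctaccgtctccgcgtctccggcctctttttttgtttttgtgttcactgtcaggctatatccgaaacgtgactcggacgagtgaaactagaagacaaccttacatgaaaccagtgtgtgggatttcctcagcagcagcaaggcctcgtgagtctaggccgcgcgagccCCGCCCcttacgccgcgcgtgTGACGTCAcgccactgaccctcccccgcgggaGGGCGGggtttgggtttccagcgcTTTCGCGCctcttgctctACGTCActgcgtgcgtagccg
Rad54l, chr4:116123640-116123939, minus strand: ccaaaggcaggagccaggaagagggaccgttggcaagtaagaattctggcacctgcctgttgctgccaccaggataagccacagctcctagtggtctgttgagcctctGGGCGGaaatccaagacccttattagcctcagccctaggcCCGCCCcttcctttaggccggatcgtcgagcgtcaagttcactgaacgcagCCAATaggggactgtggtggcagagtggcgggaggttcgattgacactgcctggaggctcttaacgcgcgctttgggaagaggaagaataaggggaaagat
Xrcc3, chr12:111813830-111814129, minus strand: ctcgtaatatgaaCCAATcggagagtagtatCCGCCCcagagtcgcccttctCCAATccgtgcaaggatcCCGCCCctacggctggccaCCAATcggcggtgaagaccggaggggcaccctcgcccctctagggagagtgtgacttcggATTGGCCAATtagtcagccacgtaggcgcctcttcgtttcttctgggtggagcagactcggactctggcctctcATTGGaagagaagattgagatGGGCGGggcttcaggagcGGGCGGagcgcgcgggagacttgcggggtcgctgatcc

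RefSeq entries were found for 8 of the 9 members, all but *Xrcc2*. Where a member had several entries, the one nearest to its GENCODE reference start was taken. The set of all promoters instead holds the first entry of each gene, and it is larger than the 21938 protein-coding genes used elsewhere. The E2F letters, named after a family of cell cycle regulators, were present in *Brca2*, *Bard1* and *Rad51c*, which is 3 of 8, against 1.91% of 27025 promoters of the same length. They started 168 bases before the RefSeq start in *Brca2*, 209 bases before it in *Bard1* and 11 bases after it in *Rad51c*. The CRE letters, the core of the cyclic AMP response element, were found in *Brca1*, *Brca2* and *Rad51c*, 3 of 8 against 7.44% of all promoters. In *Brca2* and *Rad51c* they formed the overlapping match on both strands TGACGTCA, 20 and 45 bases before the RefSeq start. The SP1 letters were in 6 of 8 members against 35.6%, and the CCAAT letters in 4 of 8 against 37.8%. *Xrcc3* alone held 6 of the CCAAT matches, of which 2 adjoin on opposite strands. ETS letters occurred in *Palb2* (1 of 8, against 9.08%), the CDE-CHR letters in *Bard1* (1 of 8, against 18.1%), and the NRF1 letters in none of the 8 (2.78% of all promoters).

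The members' promoters had between 53.7% and 63.3% G and C, with a median of 59.9%, and a median of 24.5 CpG dinucleotides in 300 bases. The medians over all promoters were 52.7% and 7 CpG. Promoters of genes with all 3 active features stood nearer to the members, with 61.7% G and C and 22 CpG. Among these active promoters the E2F letters were in 3.92%, the CRE letters in 13% and the SP1 letters in 67.2%. The CCAAT letters were in 38.5% of them, the ETS letters in 20.6%, the CDE-CHR letters in 11.2% and the NRF1 letters in 6.14%. Only 8000 of the 10127 genes with the 3 features had an entry, under 80%, so these shares describe part of that set. A match of letters is a description and was not related to binding of any factor here.

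A promoter was taken as 3 kb either side of every annotated start, and counted as marked when a peak touched it in both replicates. All 9 members had an ATAC-seq peak in both replicates, against 67.8% of the 21938 protein-coding genes. All 9 also had an H3K4me3 peak in both, against 60.8% of genes. H3K27ac was present in both replicates at 8 of 9 members, against 46.6%, and the exception was *Rad54l*. All 3 active features were thus found together at 8 of 9 members, against 46.2% of genes. None of the 9 had an H3K27me3 promoter peak in both replicates, where the share of genes was 4.81%, and none had one in either replicate, where it was 8.49%. With 9 members, a count of 0 is close to what these low shares give.

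**Figure D1:**
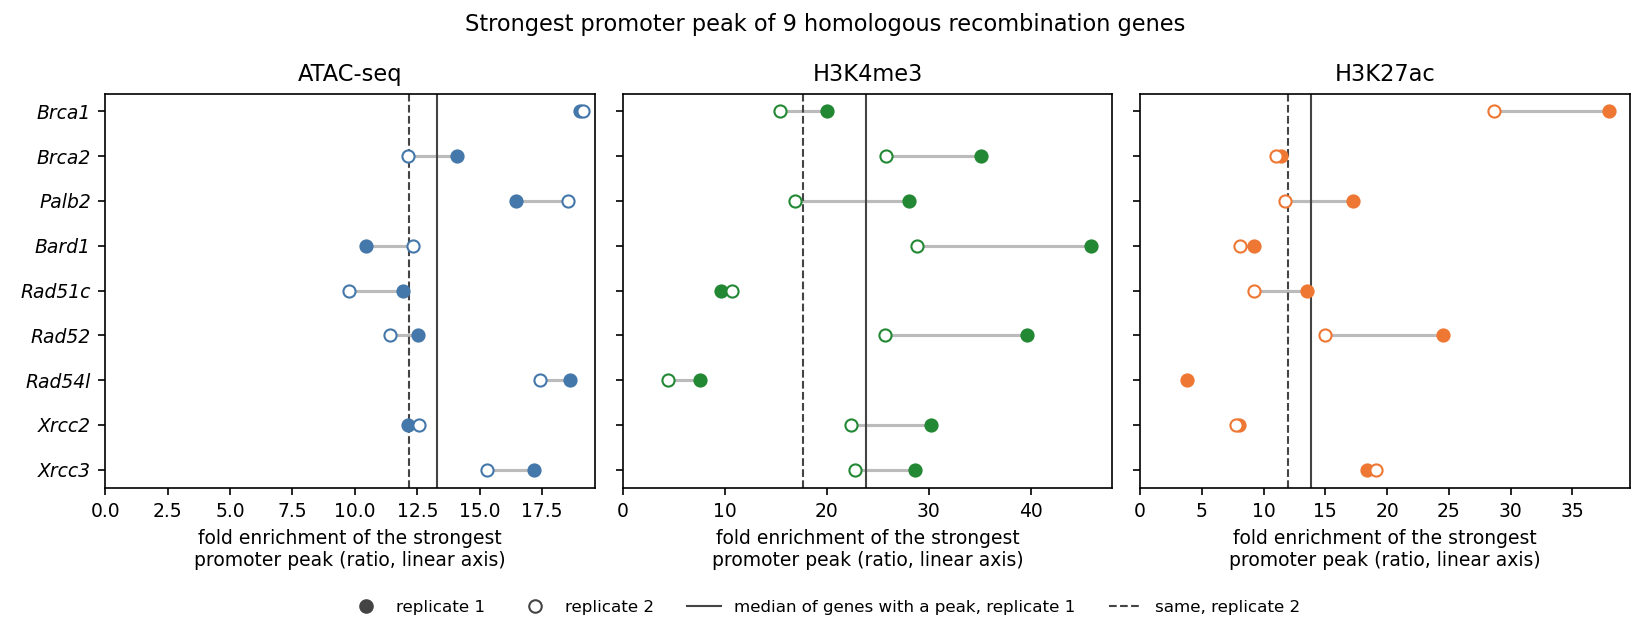
Fold enrichment of the strongest promoter peak (x axis, ratio over the local background, linear) for each of the 9 genes (y axis) in ATAC-seq, H3K4me3 and H3K27ac, with replicate 1 as filled and replicate 2 as open points; vertical lines are the medians of all protein-coding genes with a promoter peak in replicate 1 (solid) and replicate 2 (dashed). *Rad54l* had the lowest H3K4me3 values, 7.54 and 4.41, and a single H3K27ac point at 3.83, while *Brca1* had the highest H3K27ac values, 37.9 and 28.7.

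The strength of a promoter was described by the fold enrichment that the authors' peak caller gave for its strongest peak, a ratio over the local background, and by the percentile of that fold among all genes with a promoter peak in the same list. Over the 9 members the median ATAC-seq fold was 14.1 and 12.6, beside 13.3 and 12.2 over all genes with a peak. The median H3K4me3 fold was 28.6 and 22.4, beside 23.9 and 17.6. For H3K27ac it was 13.5 over 9 members and 11.4 over 8, beside 13.9 and 11.95. The medians of the members thus lay around the middle of all marked genes in ATAC-seq and H3K27ac, and at percentiles 64.3 and 69.7 in H3K4me3. Above the gene median were 6 and 5 of the 9 members in H3K4me3, much as the 5 and 6 in ATAC-seq. In H3K27ac it was 4 of 9 and 3 of 8. Replicate 1 gave the higher H3K4me3 fold in 95.8% of genes and in 8 of 9 members, with a median ratio of 1.36 in both, so values were compared within a replicate.

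Spread among the members was wide for both histone marks and narrow for open chromatin. ATAC-seq folds ran from 10.5 to 19.01 in replicate 1 and from 9.76 to 19.16 in replicate 2. H3K4me3 folds ran from 7.54 to 45.9 and from 4.41 to 28.9. H3K27ac folds ran from 3.83 to 37.9 in replicate 1, and from 7.73 to 28.7 among the 8 members with a peak in replicate 2. The same contrast was seen over all genes with a promoter peak. Their quartiles in replicate 1 were 9.53 and 17.5 in ATAC-seq, 14.5 and 32.1 in H3K4me3, and 8.43 and 21.5 in H3K27ac.

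Ordered by the strongest H3K4me3 peak, *Bard1* came first in both replicates, and *Rad52* and *Brca2* next. Then came *Xrcc2* and *Xrcc3*, then *Palb2*, *Brca1*, *Rad51c* and last *Rad54l*. Only *Rad52* with *Brca2*, and *Xrcc2* with *Xrcc3*, changed places, so by this measure neither pair differed beyond the replicate spread. In replicate 2 the strongest peaks of *Xrcc3* and *Brca1* did not cover the start. The peaks that did had folds of 16.6 and 11.9, which puts *Xrcc3* below *Xrcc2* and *Palb2* there. In H3K27ac, *Brca1* came first and *Bard1*, *Xrcc2* and *Rad54l* came last in both replicates, and *Rad52* with *Xrcc3* and *Rad51c* with *Brca2* changed places. In ATAC-seq the highest 4 were *Brca1*, *Rad54l*, *Xrcc3* and *Palb2* in both replicates, and the order of the lower 5 differed between replicates.

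*Brca1* and its partner *Bard1* showed opposite patterns. *Brca1* (chromosome 11, 101488764 to 101551955, minus strand) had an H3K27ac fold of 37.9 and 28.7, at percentiles 96.9 and 95.6 of all genes with a peak. Its H3K4me3 fold was 20.02 and 15.4, at percentiles 39.2 and 41. The 15.4 of replicate 2 belongs to a peak on the side of the neighbouring gene, with its summit 1313 bp before the start. The H3K4me3 peak that covered the *Brca1* start there had a fold of 11.9. *Bard1* (chromosome 1, 71027498 to 71103146, minus strand) had the highest H3K4me3 of the members, 45.9 and 28.9, at percentiles 97.5 and 88.8. Its H3K27ac fold was 9.20 and 8.09, at percentiles 28.3 and 27.3. In each replicate, *Brca1* was above *Bard1* in H3K27ac and below it in H3K4me3, and their ranges over the replicates did not overlap in either mark. The *Brca1* values come from a region shared with a neighbouring gene on the opposite strand. In replicate 2 the only H3K27ac peak on the *Brca1* side of the start had a fold of 4.57, below the 8.09 of *Bard1*.

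The strongest open chromatin of the *Brca1* promoter lay away from its own start. The strongest ATAC-seq peak, with a fold of 19.01 and 19.16, had its summit 853 and 807 bp before the *Brca1* reference start. The start of *Nbr1*, an autophagy receptor gene on the opposite strand, lies 270 bp before it, and other *Nbr1* starts reach 1022 bp. No ATAC-seq peak covered the GENCODE reference start of *Brca1* in either replicate. Weaker peaks ended 3 bp before it in replicate 1 (fold 4.13) and 57 bp before it in replicate 2 (fold 4.76). The RefSeq start used for the sequence above lies 76 bp further upstream, so its position falls inside both of these weaker peaks. H3K27ac summits lay 367 and 343 bp before the start. In replicate 1 a single H3K27ac peak of 2838 bp covered the start, and in replicate 2 a strong peak of 1732 bp on the *Nbr1* side was followed by a weak one (fold 4.57) just inside *Brca1*.

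*Bard1* had no other annotated start within 3 kb. Its strongest ATAC-seq peaks, with a fold of 10.5 and 12.3, had summits 33 and 30 bp inside the GENCODE start, and a further ATAC-seq peak lay at 2982 and 3013 bp with a fold of 6.41 and 7.40. H3K27ac was also found there, with summits at 2703 and 2880 bp and a fold of 6.51 and 4.78. H3K4me3 gave a weak peak near it in replicate 1 only (fold 3.41). The main H3K4me3 peak of *Bard1* was 1896 and 1706 bp wide and ranked 291 of 20519 peaks by fold in replicate 1 and 1293 of 18006 in replicate 2.

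*Palb2* and *Brca2* had single promoter peaks of each active feature in each replicate. For *Palb2* (chromosome 7, 122107262 to 122132985, minus strand) the ATAC-seq fold was 16.4 and 18.5, the H3K4me3 fold 28.1 and 16.9, and the H3K27ac fold 17.2 and 11.8. Its start is 95 bp from that of *Dctn5*, a dynactin subunit gene on the opposite strand, and its peaks spanned both starts, with H3K27ac summits 213 and 208 bp upstream. A processed pseudogene, *Gm16326*, starts 1854 bp inside *Palb2*, and no promoter peak lay over that start.

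For *Brca2* (chromosome 5, 150522630 to 150570329, plus strand) the ATAC-seq fold was 14.1 and 12.1, the H3K4me3 fold 35.2 and 25.9, and the H3K27ac fold 11.4 and 11.0. ATAC-seq summits lay 26 and 34 bp before the start, beside the CRE letters shown above. H3K4me3 summits lay 128 and 125 bp inside the gene and H3K27ac summits on both sides of the start, at 160 bp inside and 146 bp before it. The noncoding genes *Gm23641*, *Gm42529* and *Gm43690* start 29177, 43796 and 48468 bp inside *Brca2*, each near an internal start of it, and none of these internal windows held a peak of the 8 lists.

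*Xrcc2*, *Xrcc3* and *Rad51c* differed from each other. *Xrcc2* (chromosome 5, 25689812 to 25705825, minus strand) had an H3K4me3 fold of 30.2 and 22.4 but an H3K27ac fold of only 8.04 and 7.73, at percentiles 22.3 and 25.7. *Xrcc2* had no other start within 3 kb, and its ATAC-seq fold was 12.1 and 12.6. *Xrcc3* (chromosome 12, 111803192 to 111813873, minus strand) had an H3K4me3 fold of 28.6 and 22.8 and an H3K27ac fold of 18.4 and 19.1. By the strongest peak, *Xrcc3* was thus above *Xrcc2* in H3K27ac in each replicate, while in H3K4me3 they changed order. In replicate 2 the strongest H3K4me3 peak of *Xrcc3* had its summit 520 bp before the start and did not cover it. The H3K4me3 peak that covered the *Xrcc3* start there had a fold of 16.6, below the 22.4 of *Xrcc2*.

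The strong H3K27ac peaks of *Xrcc3* lay on the side of *Zfyve21*, a FYVE-domain gene that starts 329 bp away on the opposite strand. Their summits were 491 and 533 bp before the *Xrcc3* start. A separate peak covered the *Xrcc3* start with a fold of 10.7 and 7.72, near the 8.04 and 7.73 of the only H3K27ac peak of *Xrcc2*. *Xrcc3* also had an ATAC-seq peak 3926 and 3911 bp inside the gene, with a fold of 4.13 and 4.83, joined by a weak H3K27ac peak in replicate 1 alone (fold 3.29).

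*Rad51c* (chromosome 11, 87376645 to 87404954, minus strand) had the second lowest H3K4me3 of the members, 9.63 and 10.7, at percentiles 14.9 and 23.5, and was the only member with the higher value in replicate 2. Its H3K27ac fold was 13.5 and 9.19 and its ATAC-seq fold 11.9 and 9.76. *Tex14*, a gene of germ cell bridges, starts 542 bp away on the opposite strand. H3K4me3 summits lay 185 and 237 bp inside *Rad51c*, and neither H3K4me3 peak reached the *Tex14* start. The H3K27ac peak extended 516 and 635 bp upstream and covered it in replicate 2 alone.

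*Rad54l* (chromosome 4, 116094264 to 116123690, minus strand) combined strong open chromatin with the weakest histone marks. Its ATAC-seq fold was 18.6 and 17.4, at percentiles 80.3 and 81.7, with summits 53 and 89 bp before the start. The H3K4me3 fold was 7.54 and 4.41, at percentiles 11.2 and 4.37. H3K27ac was called in replicate 1 only, with a fold of 3.83 at percentile 1.53 and a −log10 q of 2.81. *Rad54l* was thus the highest member but 1 in ATAC-seq of replicate 1 and the lowest in both histone marks. Among the 13143 genes with ATAC-seq and H3K4me3 in both replicates, 77.1% had H3K27ac in both, 4.83% in replicate 1 only and 17.6% in neither. The start of *Pomgnt1*, a glycosyltransferase gene of the dystroglycan pathway, lies 155 bp away on the opposite strand, and both H3K4me3 peaks of *Rad54l* and its H3K27ac peak covered it. At the promoter of *Uqcrh* and *Lrrc41*, beyond the far end of *Rad54l*, H3K4me3 was 41.6 and 26.8 and H3K27ac was 30.3 and 23.2 in the same libraries.

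*Rad52* (chromosome 6, 119902698 to 119922828, plus strand) was high in both histone marks. Its H3K4me3 fold was 39.6 and 25.7, at percentiles 91 and 81, and its H3K27ac fold was 24.5 and 14.97, at percentiles 82.2 and 64.5. The ATAC-seq fold was 12.5 and 11.4, near the middle of all genes. Its peaks spanned the start of the long noncoding RNA *4930540M05Rik*, 123 bp away on the opposite strand. A further ATAC-seq peak in an intron, 9469 and 9430 bp inside *Rad52*, was present in both replicates with a fold of 6.95 and 6.79 and carried no histone peak.

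**Figure D2:**
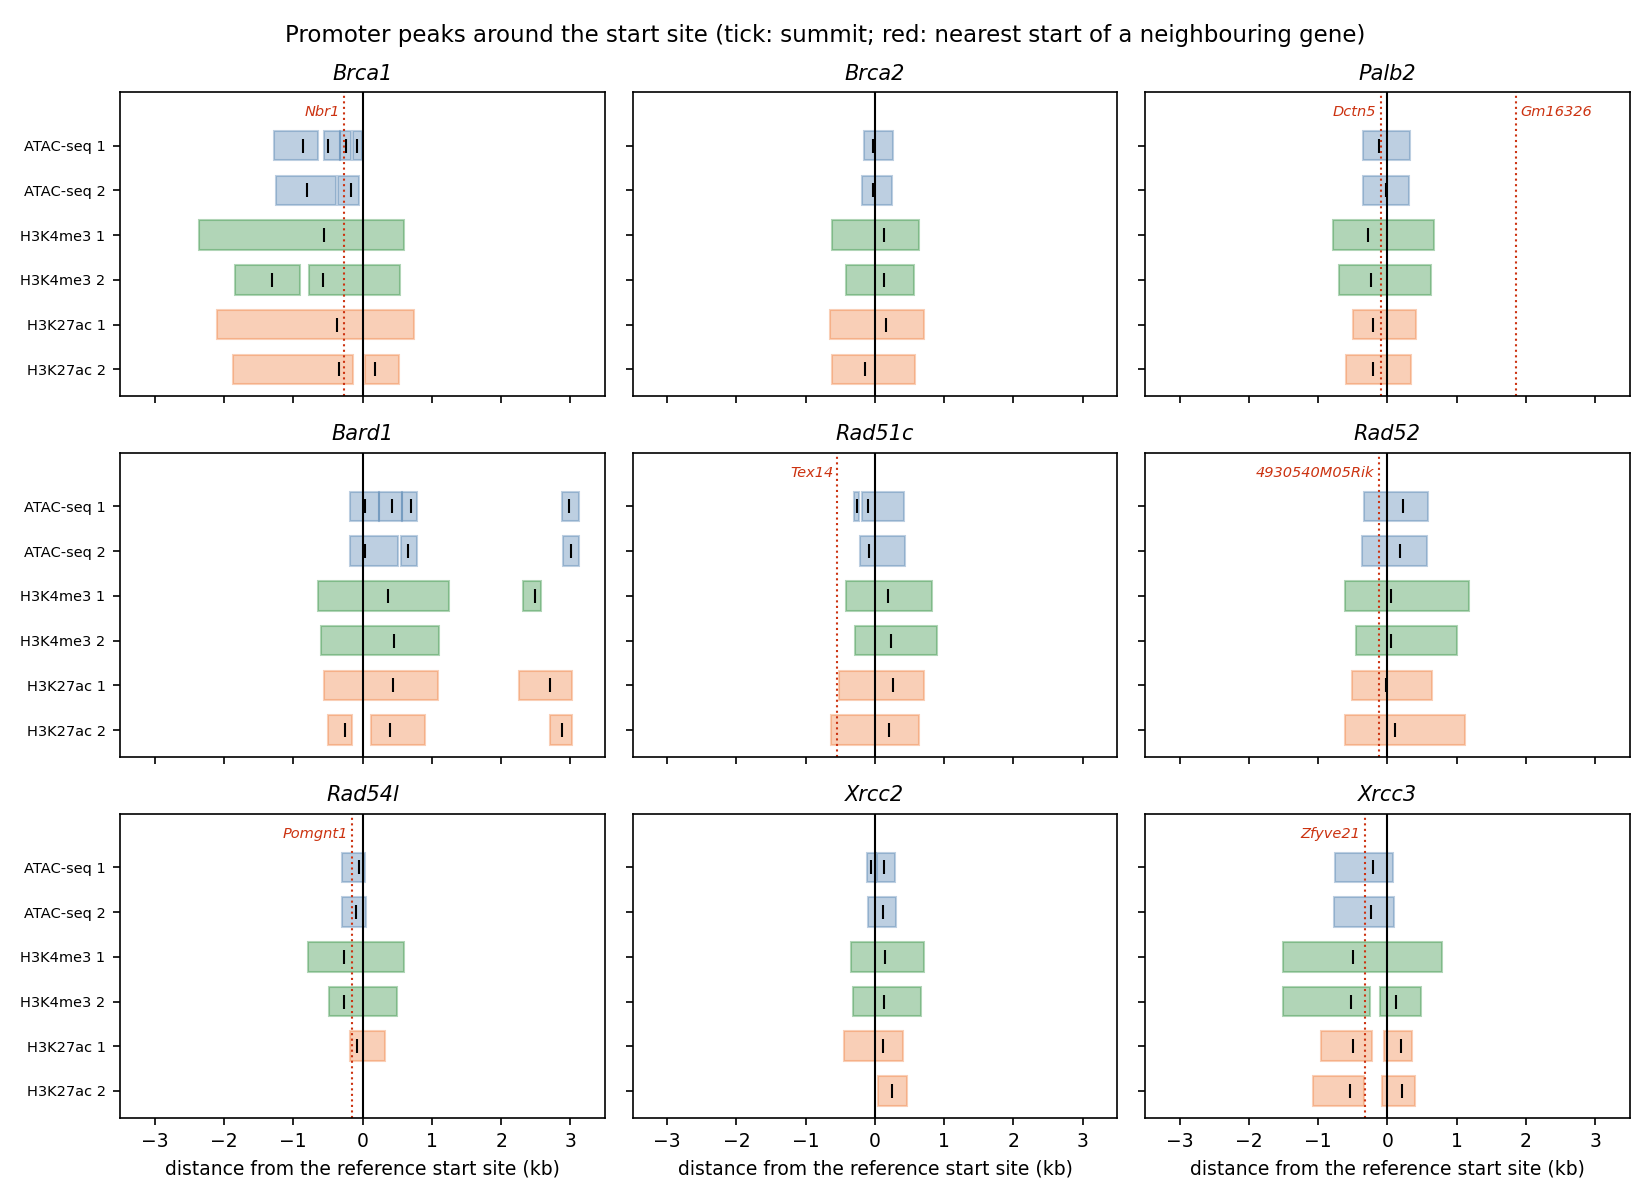
Promoter peaks of the 9 genes within 3.5 kb of the reference start (x axis, distance in kb, negative upstream, each gene drawn 5′ to 3′), with 1 lane per library on the y axis; boxes are peaks, black ticks summits, and dotted red lines the nearest start of a neighbouring gene. The strongest ATAC-seq summits of *Brca1* sit 853 and 807 bp upstream, beyond the *Nbr1* start, while those of *Bard1* sit 33 and 30 bp downstream.

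Of the 9 members, 6 had the start of another gene on the opposite strand within 1 kb upstream of their reference start, against 14.2% of protein-coding genes. In 5 of 9 this was a protein-coding gene, against 9.19%. These were *Nbr1*, *Dctn5*, *Tex14*, *Pomgnt1* and *Zfyve21*. This distance was chosen after the neighbours had been seen. In the other list of 33 homologous recombination genes, 16 had such a neighbour and in 15 it was protein-coding, beside 3 of 12 end joining genes and 4 of 11 resection and microhomology genes. Over all genes, the 3 active features were found together at 80% of the 3108 with such a neighbour and at 40.6% of the 18830 without. Peaks over a pair of starts cannot be told apart by gene, so the values above describe the shared region.

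In the genes and 20 kb either side, 51 and 38 ATAC-seq peaks, 16 and 16 H3K4me3 peaks, 18 and 16 H3K27ac peaks, and 4 and 5 H3K27me3 peaks were listed. Of the ATAC-seq peaks, 36 of 51 and 30 of 38 overlapped a peak of the other replicate. All 16 H3K4me3 and all 16 H3K27ac peaks of replicate 2 had a counterpart, and 14 of 16 and 14 of 18 of replicate 1 did. Within 3 kb of the reference starts lay 17 and 12 ATAC-seq, 10 and 11 H3K4me3 and 11 and 12 H3K27ac peaks. Promoters of other protein-coding genes held 17 and 17 of the ATAC-seq peaks, 5 and 4 of the H3K4me3 peaks, and 4 and 3 of the H3K27ac peaks.

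Few peaks inside the genes were away from their reference starts. *Bard1* had an intronic ATAC-seq peak 66.0 kb from its start with a fold of 5.45 and 4.62, within 3 kb of the start of a noncoding gene. *Brca1* had an exonic ATAC-seq peak at 17.8 kb in replicate 1 only (fold 4.77) and none in introns. *Brca2* held 5 ATAC-seq peaks in replicate 1 and 1 in replicate 2, the promoter peak, and 3 of the 4 others lay beyond the 3′ end of the gene. One of the 4, 11.1 kb before the start, had a fold of 34.4 and no counterpart in replicate 2. *Xrcc2* had no peak other than those at its promoter.

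*Rad51c* was the only member with H3K27me3 in this range. The 4 and 5 peaks lay near the promoter of *Ppm1e*, a phosphatase gene, starting 15.4 and 18.3 kb past the end of *Rad51c*. Their folds were 2.55 to 3.93 in replicate 1 and 3.20 to 3.60 in replicate 2, with −log10 q between 0.039 and 1.49 and between 0.781 and 1.51. H3K4me3 was listed at the same promoter with a fold of 21.7 and 18.4, and H3K27ac was not. On the other side of *Rad51c*, 18.2 kb before its start and near the promoter of a noncoding gene, H3K27ac had a fold of 31.4 and 22.1, above the values at *Rad51c* itself in each replicate. The nearest H3K27me3 peak to the other members was between 22.5 kb (*Brca1*) and 2794.8 kb (*Brca2*) away in replicate 1 and between 36.4 kb (*Rad52*) and 2564.0 kb (*Brca2*) in replicate 2.

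**Figure D3:**
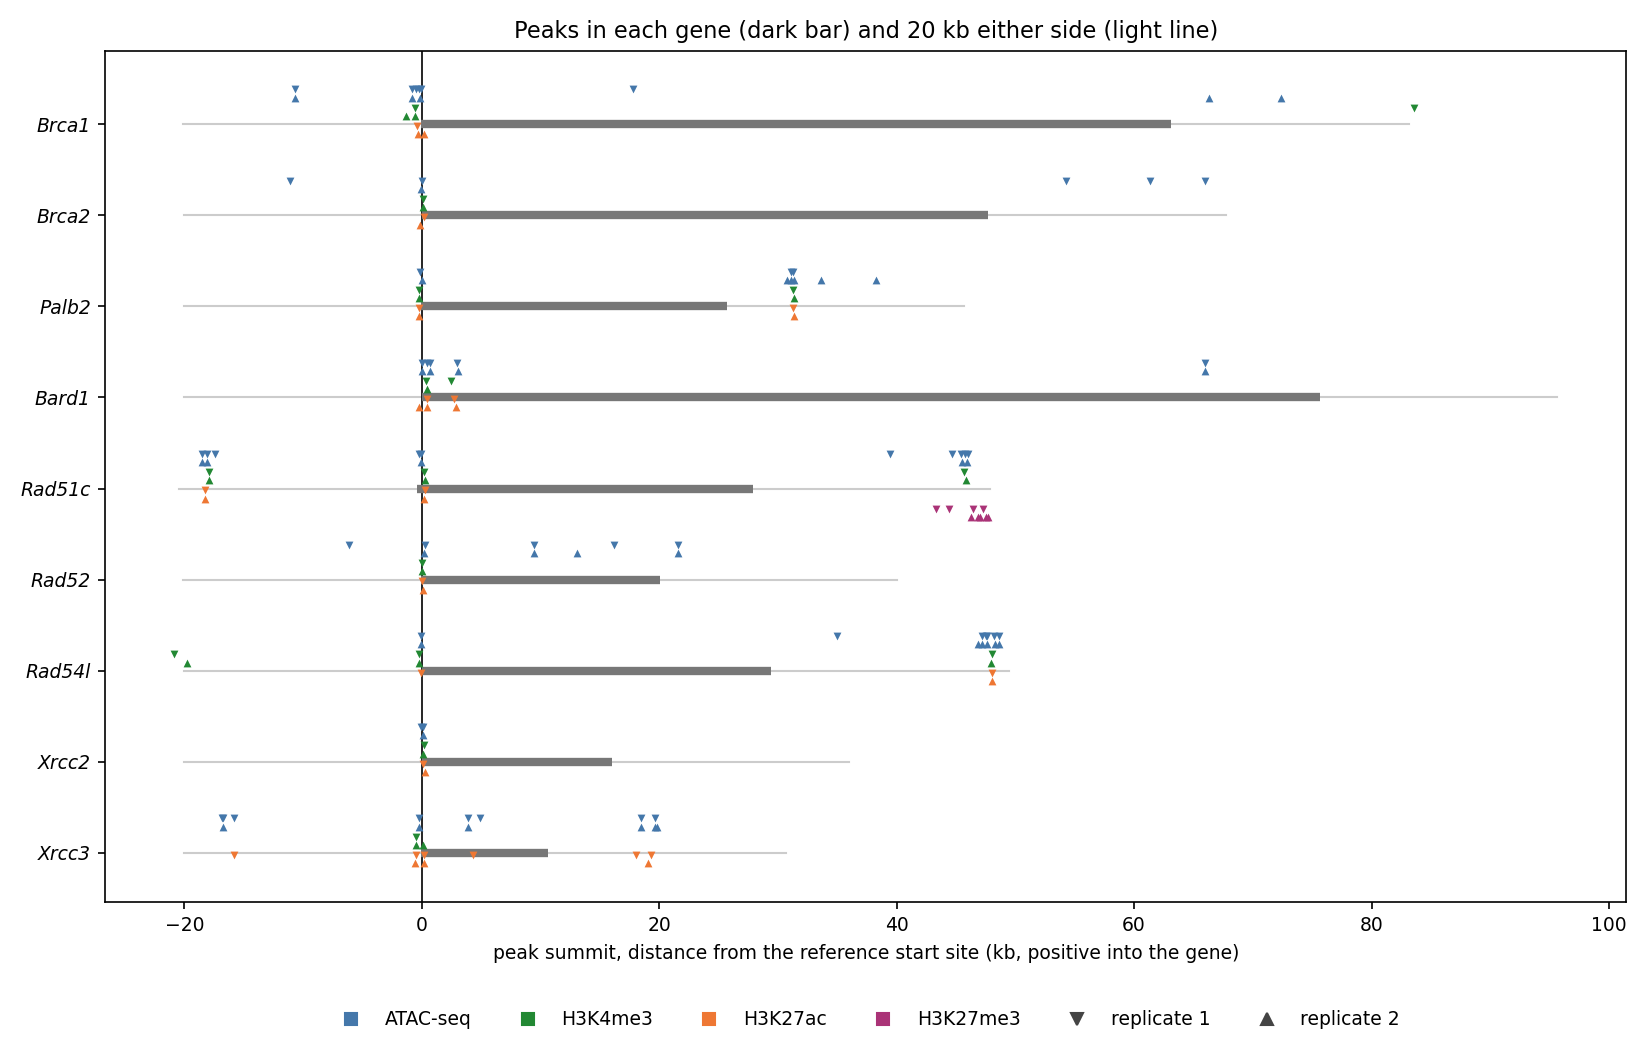
Summits of all peaks in the 9 genes and 20 kb either side (x axis, distance from the reference start in kb, positive into the gene), with 1 line per gene on the y axis, colours for the 4 features and downward and upward triangles for replicates 1 and 2. H3K27me3 appears only beside *Rad51c*, as 4 and 5 peaks, and *Xrcc2* has no peak away from its start.

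The other genes of double-strand break repair were read in the same way. Of 33 further homologous recombination genes, 33 had ATAC-seq and 33 had H3K4me3 in both replicates, 31 had H3K27ac, and 31 had all 3. The shares over all protein-coding genes were 67.8%, 60.8%, 46.6% and 46.2%. *Dmc1*, the meiotic recombinase, had no H3K27ac peak in either replicate and the lowest H3K4me3 of the list, 4.09 and 3.42. *Helq*, a helicase, had H3K27ac in replicate 1 only (fold 5.75), as *Rad54l* did. By the lower of the replicates, *Rmi1*, a subunit of the BLM dissolvasome, had the highest H3K4me3, 43.7 and 31.3. None of the 33 had H3K27me3 in either replicate, where the share of all protein-coding genes was 8.49%.

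All 12 end joining genes had the 3 active features in both replicates, against 46.2% of protein-coding genes. Of 11 resection and microhomology genes, 10 did, and the exception was the nuclease gene *Dna2*, with H3K27ac in replicate 1 only (fold 6.13). Median H3K4me3 folds were 26.8 and 18.4 for the 33 genes, 25.2 and 17.9 for end joining and 28.02 and 19.04 for resection and microhomology, beside 28.6 and 22.4 for the 9 members. Median H3K27ac folds over genes with a peak were 14.8 and 11.9, 11.7 and 9.19, and 18.4 and 16.7, beside 13.5 and 11.4. The markers of proliferating cells had medians of 23.8 and 17.9 in H3K4me3 and 7.24 and 5.62 in H3K27ac, at H3K27ac percentiles of 18.2 and 11.7, where the members stood at 48.6 and 47.1.

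**Figure D4:**
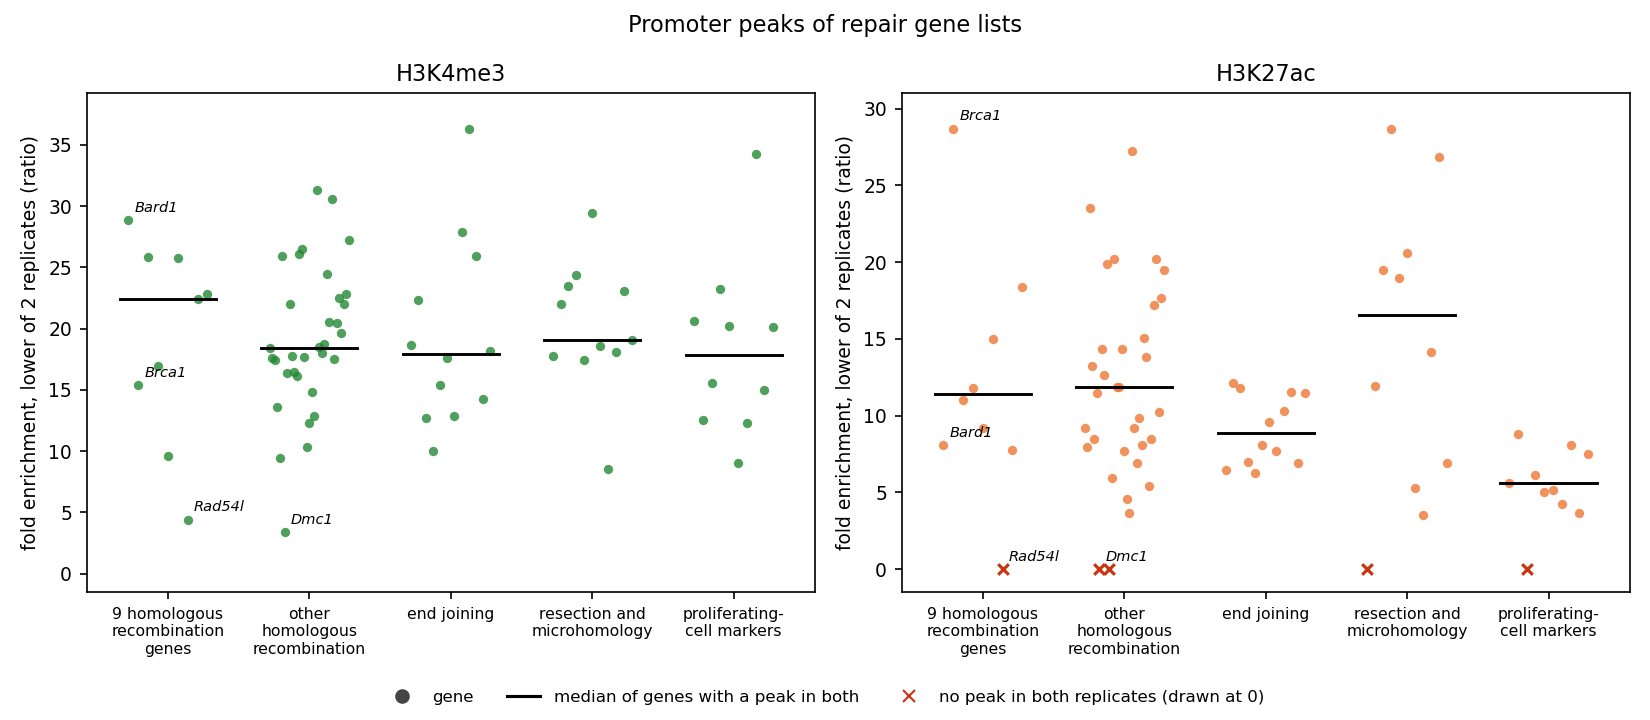
Fold enrichment of the strongest promoter peak, lower of the 2 replicates (y axis, ratio, linear), for the genes of 5 lists (x axis) in H3K4me3 and H3K27ac; points are genes, black lines medians of genes with a peak in both replicates, and red crosses at 0 genes without one. *Rad54l* (4.41) and *Dmc1* (3.42) are low in H3K4me3, and neither has H3K27ac in both replicates.

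Across the 6 percentiles of the active features, the genes nearest to the medians of the members among 10127 genes with all 3 features were *Mrm1*, a mitochondrial RNA methyltransferase gene, *Ncaph2*, a condensin subunit gene, and *Fkbp4*, an immunophilin gene. Their Euclidean distances were 6.29, 6.37 and 12.3 percentile units. The members themselves lay between 24.2 (*Brca2*) and 89.7 (*Brca1*) from their own medians, so *Brca2* was the most typical of the 8 members with all 3 features and *Brca1* the least.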

How the data were processed

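The deposited data used were 8 peak lists, 1 per library, from sorted MuSCs. According to the methods and labels, the authors trimmed reads with Trim Galore 0.6.10, aligned them to mm10 with BWA 0.7.17-r1188, removed low-quality, duplicate and blacklisted alignments with SAMtools 1.5 and other tools, corrected the ATAC-seq offset with deepTools 3.5.5, and called peaks with MACS2 2.2.6 in each library. The deposited lists give the authors' score, fold enrichment (a ratio) at the summit, p-value and q-value as −log10, and the summit position. The minimum −log10 q was 1.32 to 2.02 in ATAC-seq, H3K4me3 and H3K27ac. H3K27me3 was called more loosely, with a minimum −log10 p of 3.01 and −log10 q down to 0. Depth is unknown, so no interval is given. The other samples of the 272 were not analysed here.

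GENCODE M21 starts on 21 assembled chromosomes were intersected with these peaks. A peak touched a window from 1 bp. Positions are relative to the start of the principal transcript by APPRIS. Windows cover every annotated start, from 6001 to 30711 bp per member. The members and lists were chosen with earlier results of these data known. Named were all members, genes starting within 3 kb of a member's start, repair genes lacking an active feature in both replicates or with H3K27me3, the highest and lowest H3K4me3 fold of the other homologous recombination genes, and the 3 genes nearest in profile. Genes at other promoters within 20 kb (*Ppm1e*, *Uqcrh*, *Lrrc41*) were named after their values were seen. No test was run. The intersection was checked on simulated intervals against a plain loop. Python 3.11.15, numpy 2.4.6, pandas 2.3.3 and matplotlib 3.10.9 were used.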

Additional observations from a re-analysis of the deposited data

How the results depend on the processing

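Of 71 alternatives over 12 results, 65 stayed within the spread between replicates or within 1.5 times the main count. The other 6 concern the width of the region or the strength of its peaks. With 5 kb instead of 20 kb either side of the genes, ATAC-seq peaks fell from a mean of 44.5 to 21 and H3K27me3 peaks from 4.5 to 0. With 50 kb, they rose to 96 for ATAC-seq, to 32 for H3K4me3 and to 35 for H3K27ac, from 16 and 17. With a −log10 q of at least 5, 0 H3K27me3 peaks were left. A wider or narrower window holds more or fewer peaks by construction. Some of the 65 likewise could not have moved. Leaving out 1 of 2 replicates always shifts a median fold by less than the replicate spread. Stricter settings can only leave the count of members with H3K27me3 promoter peaks at 0. *Rad54l* was the only member counted as unmarked in H3K27ac. At the main threshold the replicate decides it, as replicate 1 alone gave 9 of 9 members and replicate 2 alone gave 8. Its peak in replicate 1 had a −log10 q of 2.81, below the stricter threshold of 5. No paired analysis was possible because the results come from no test.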
